A study of Homo sapiens with 40 samples.

Results

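The polysome shift is the change in the ratio of polysomal to subpolysomal mRNA after knockdown of CNOT1. It was measured in HEK293 cells, an established human embryonic kidney cell line, over 16 of the 40 RNA-Seq libraries of the study. Cells were transfected with control siRNA or with CNOT1 siRNA and lysates were spun through sucrose gradients. Fractions 1 to 5 were pooled as subpolysomal RNA and fractions 6 to 11 as polysomal RNA, with 4 libraries for each siRNA and fraction. The members were all gradient libraries of these 4 groups, chosen by their labels, and no other allele, drug or time point separated the groups. The shift was taken on the log2 scale, as the difference that CNOT1 siRNA made to polysomal RNA less the difference it made to subpolysomal RNA, so that a positive shift means a higher polysomal share of an mRNA after knockdown. It is relative to the other mRNAs of the same libraries, and a change in the total amount of mRNA in a fraction, or in the number of cells loaded, was not measured.

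CNOT1 is the scaffold of the Ccr4-Not complex, which carries deadenylases that shorten poly(A) tails and which also represses translation. In a sucrose gradient an mRNA that carries several ribosomes sediments into the polysomal fractions, whereas free and ribosome-poor mRNPs stay near the top. The ratio between the fractions can therefore move because the polysomal pool changes, because the subpolysomal pool changes, or because both do.

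Libraries held between 15.9 M and 27.3 M counts. The subpolysomal libraries fell into 2 depths, 24.001 M to 27.3 M for replicates 1 and 2 and 15.9 M to 17.7 M for replicates 3 and 4, with both siRNAs in each. Of the HEK293 markers, NEFM, NEFL and GATA2 were high in every library (1017 to 6424, 553 to 1014 and 64.6 to 122.8 CPM, counts scaled to library size), LHX1 was low (3.20 to 7.30 CPM) and PAX2 was close to absent (0.10 to 0.77 CPM). Summed markers of blood cells and hepatocytes stayed at or below 0.42 CPM in each group. Of the fibroblast markers COL1A1 had 1.17 to 8.06 CPM, whereas COL1A2 and DCN, and CDH5 of endothelium, stayed at or below 0.325 CPM.

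CNOT1 itself (chromosome 16, 58553855 to 58663789, GRCh37) showed that 2 libraries went against their labels. In subpolysomal RNA it stood at 299, 301, 254 and 230.0 CPM in control siRNA replicates 1 to 4 and at 92.1, 88.1, 74.5 and 79.5 CPM in CNOT1 siRNA replicates 1 to 4. In polysomal RNA it stood at 488, 529.7, 28.5 and 516 CPM in the libraries labelled control siRNA and at 29.5, 24.4, 671 and 32.1 CPM in those labelled CNOT1 siRNA. The 2 polysomal libraries of replicate 3 thus each held the level of the other siRNA, whereas both subpolysomal libraries of replicate 3 followed their labels. Over all genes the polysomal library labelled control siRNA replicate 3 correlated at 0.989 to 0.992 with the other CNOT1 siRNA polysomal libraries and at 0.975 to 0.977 with the other control ones (Pearson's r of log2 CPM across genes, which are not independent replicates). The library labelled CNOT1 siRNA replicate 3 correlated at 0.988 to 0.993 with the other control and at 0.979 to 0.983 with the other CNOT1 siRNA polysomal libraries. No label was changed, and results are given with all 16 libraries and with the 14 libraries that remain without these 2. A shift of a single gene printed once is the one over these 14 libraries. For CNOT1 the shift was 0.75 (SE 1.17, FDR 0.803) with all libraries and -2.30 (SE 0.18, FDR 1.04e-05) without both (edgeR), where its effect was -4.09 in polysomal, -1.79 in subpolysomal and -4.07 in input RNA.

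**Figure D1:**
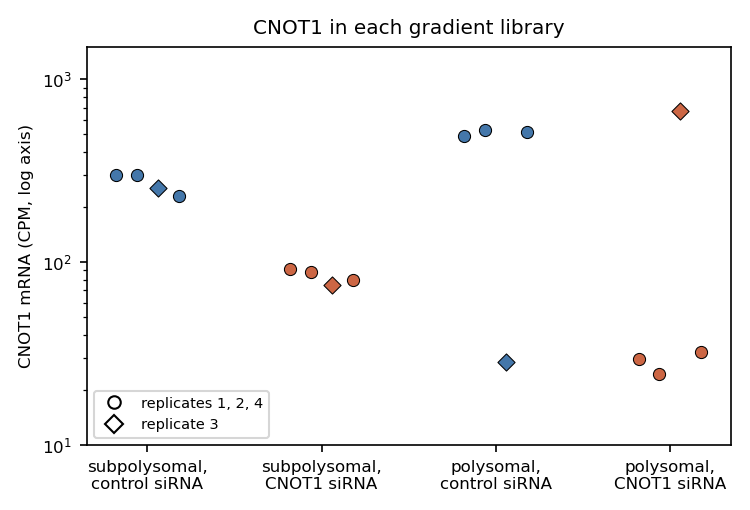
CNOT1 mRNA in CPM (log axis) in each of the 16 gradient libraries, by fraction and labelled siRNA; each point is 1 library and diamonds are replicate 3. The polysomal replicate 3 libraries, at 28.5 CPM for control siRNA and 671 CPM for CNOT1 siRNA, sit at the level of the other siRNA.

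To ask which mRNAs changed their distribution between the fractions, the shift was tested for each gene. With all libraries the ratio was higher for 95 and lower for 62 of 16506 genes tested (0.576% and 0.376%, FDR under 0.05 by edgeR). Without both polysomal libraries of replicate 3 it was higher for 919 and lower for 667 of 16805 genes (5.47% and 3.97%). All 157 genes called with all libraries were called in the same direction without both. The polysomal/subpolysomal ratios of replicates 1, 2 and 4 did not overlap between the siRNAs for 811 of the 919 and 663 of the 667 genes. Over all genes tested this held for 28.98%. Each such gradient ratio joins libraries of the same siRNA and replicate number, although the numbers did not pair the fractions in these data. In replicate 3 it joins a polysomal library that went against its label with a subpolysomal one that followed it. A shift over 1 on the log2 scale was reached by 169 of the higher and 132 of the lower genes, and the median over all genes was 0.07. The split depended on scaling, since edgeR with RLE in place of TMM factors gave 556 higher and 934 lower genes without both libraries, and 46 and 62 with all libraries. Replicate numbers paired the siRNAs within a fraction over these 14 libraries, and with the number as a replicate block within fraction 3364 genes were higher and 2486 lower (20% and 14.8%). DESeq2 called 7.15% higher and 10.8% lower without both libraries, and 2.14% and 2.42% with all. Counts of calls, and the SE, FDR and left-out fits of single genes, are those of edgeR without the block where no other is named. Within the depths of the subpolysomal libraries, replicates 1 and 2 alone gave 1525 and 1130 genes and replicates 3 and 4 alone 1180 and 993.

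The called genes differed in which pool moved. Of the 919 higher genes, 697 combined a positive effect in polysomal with a negative effect in subpolysomal RNA, and the medians were 0.40 and -0.36 (log2). Of the 667 lower genes, 453 had the reverse, with medians of -0.45 in polysomal and 0.35 in subpolysomal RNA. The genes called in both fits had an almost level polysomal pool, a pattern that their selection favours. The 95 higher ones among them had a median effect of -0.03 in polysomal and -0.94 in subpolysomal RNA, and the 62 lower ones 0.05 and 0.93. In all 157 the subpolysomal effect was the larger of the pair, against 41.1% of the 824 higher and 38.3% of the 605 lower genes that were called only without both libraries. Input RNA, sequenced from the unfractionated lysates, moved with the polysomal pool in that second class (medians of 0.31 for the higher and -0.38 for the lower genes). For the genes called in both fits it went with the subpolysomal pool, by less (medians of -0.26 for the higher and 0.23 for the lower genes). These are descriptions of genes chosen by the same contrast and carry no test of their own. The fit with all libraries holds both polysomal libraries that went against their labels, and these offset an effect in polysomal RNA. For BTG2, described below, this effect was 1.18 without both libraries and 0.48 with all (log2), and only the former fit called it. A call in both fits therefore favours genes with a level polysomal pool. Whether the classes differ beyond this selection was not tested.

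**Figure D2:**
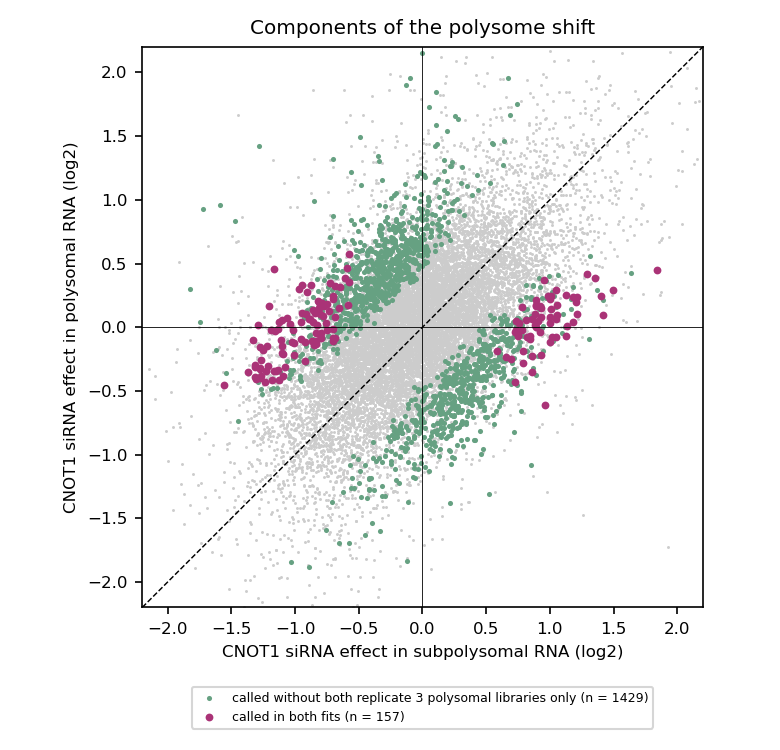
CNOT1 siRNA effect in polysomal RNA (y axis, log2) against that in subpolysomal RNA (x axis, log2) for each gene tested, without both polysomal libraries of replicate 3; grey points were not called and the dashed line marks no shift. The 157 genes called in both fits lie to the left and right, near a polysomal effect of 0, and the other called genes spread along both sides of the line; 112 genes, 8 of them called, lie outside the axes.

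Among the genes whose ratio rose, several encode components of the translation apparatus. EIF4B (chromosome 12, 53400066 to 53435999), a cofactor of the eIF4A helicases, had 1699, 1929.6, 1423 and 1656 CPM in subpolysomal RNA with control siRNA (replicates 1 to 4) and 735, 732, 688 and 687 CPM with CNOT1 siRNA. In polysomal RNA it had 669, 761, 742 and 804 CPM with control and 646, 689.6, 871 and 657 CPM with CNOT1 siRNA. Its subpolysomal values were lower in every CNOT1 siRNA library without overlap, its polysomal values overlapped, and the shift was 1.23 (SE 0.16, FDR 0.00148) without both libraries and 1.30 (SE 0.18, FDR 0.00535) with all. Throughout, SE is the standard error of the shift and FDR its adjusted p from the edgeR quasi-likelihood test over all genes. PABPC1, the main cytoplasmic poly(A)-binding protein, had a higher CPM in subpolysomal than in polysomal libraries. In subpolysomal RNA it had 6772, 9932, 4629.8 and 6951 CPM with control and 2982, 4784, 1991 and 3425 CPM with CNOT1 siRNA. Its polysomal values were 598, 566, 679 and 648 CPM with control and 643, 631, 749.8 and 678 CPM with CNOT1 siRNA. Each replicate number showed fewer PABPC1 reads in the subpolysomal CNOT1 siRNA library, although the groups overlapped, and the shift was 1.38 (SE 0.34, FDR 0.021) without both and 1.35 (SE 0.31, FDR 0.0459) with all libraries. EIF3L, a subunit of the initiation factor eIF3, shifted by 1.17 (SE 0.19, FDR 0.00303) and 1.22 (SE 0.19, FDR 0.00983) respectively. Its subpolysomal effect was -1.19 and its polysomal effect -0.02, and 41.1% of its exonic bases overlap another gene on the same strand.

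The other genes with a large increase came from several functions. TRIM45 (chromosome 1, 117653682 to 117665209), a RING-type ubiquitin ligase, had the largest shift of those called in both fits with at least 10 CPM, 1.63 (SE 0.25, FDR 0.00207) without both libraries. It had 23.7, 24.2, 21.8 and 23 CPM in subpolysomal RNA with control and 13, 13.5, 8.07 and 9.31 CPM with CNOT1 siRNA, and 5.25, 5.12, 6.41 and 4.03 and 5.71, 6.66, 5.93 and 6.65 CPM in polysomal RNA. The gradient ratios of TRIM45 lay between -2.38 and -1.69 with control siRNA and between -1.12 and -0.41 with CNOT1 siRNA over all 8 gradients. With replicate 3 counted by its labels the groups did not overlap. No overlap over replicates 1, 2 and 4 was a condition for naming TRIM45. FZD4, a Wnt receptor, shifted by 1.27 (SE 0.19, FDR 0.00212), and the DEAD-box helicase DDX17 by 1.16 (SE 0.22, FDR 0.00491). NASP, a histone chaperone, shifted by 1.15 (SE 0.22, FDR 0.00512), TMCO6 by 1.15 (SE 0.16, FDR 0.00148) and MCM5, a subunit of the replicative helicase, by 1.13 (SE 0.27, FDR 0.0157). Of these 9 genes, only TMCO6 had a polysomal effect about as large as its subpolysomal effect (0.58 and -0.58). The others had subpolysomal effects of -1.33 to -0.97 and polysomal effects of -0.10 to 0.46. All 9 were chosen among the 95 higher genes called in both fits, in which the subpolysomal effect was always the larger. Among the 14 fits that left out 1 more library, MCM5 lost its call without polysomal CNOT1 siRNA replicate 1 (FDR 0.0506), and PABPC1 without that library or polysomal control replicates 1 or 2 (FDR up to 0.0619). With all libraries, TRIM45, EIF4B, EIF3L and DDX17 kept their calls in each of the 16 fits that left out 1 library and the other 5 genes did not.

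**Figure D3:**
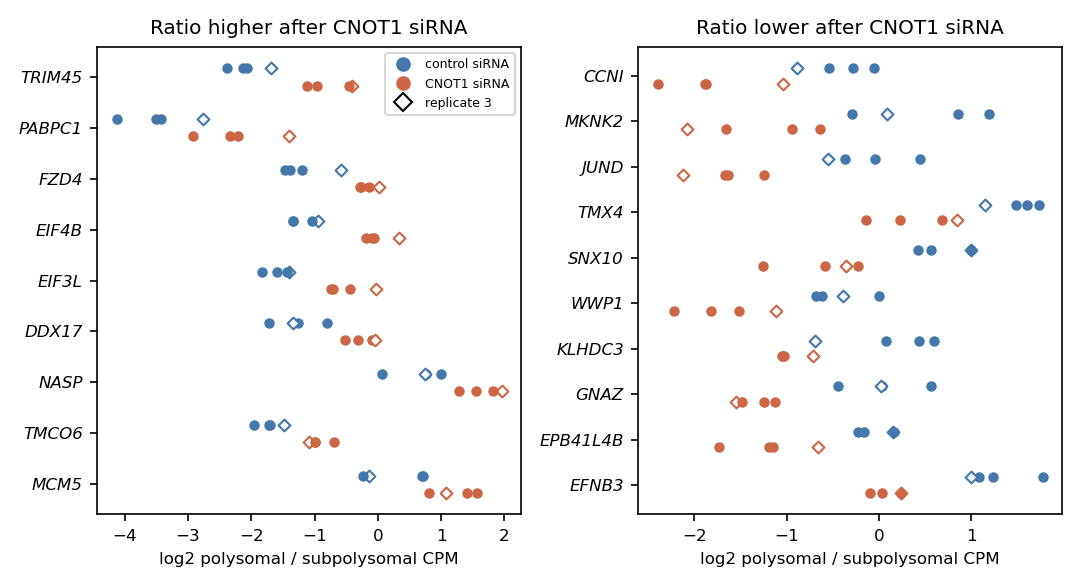
Log2 polysomal/subpolysomal CPM ratio (x axis) in each gradient for 9 of the genes with the largest increase (left) and the 10 with the largest decrease (right) among genes called in both fits; each point is 1 gradient and open diamonds are replicate 3. All 19 genes were chosen to have no overlap of the siRNAs over replicates 1, 2 and 4. In PABPC1 the control gradient of replicate 3 falls among the CNOT1 siRNA gradients.

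The ratio was higher for many ribosomal protein mRNAs, with a lower level in the subpolysomal pool after knockdown. In mammals these mRNAs, with those of elongation factors and some initiation factors, begin with a terminal oligopyrimidine (TOP) tract, a C followed by an unbroken run of pyrimidines at the cap, and are known for all-or-none translation under growth control. Of 49 large-subunit mRNAs tested, 23 had a higher and 1 a lower ratio without both libraries (median shift 0.64), and 16 and 0 with all libraries (median 0.84). Of 33 small-subunit mRNAs the numbers were 17 and 0 (median 0.65), and 9 and 0 (median 0.86). Of 19 non-ribosomal TOP mRNAs, 9 and 0 were called without both (median 0.67) and 7 and 0 with all (median 0.78). These counts compare with 5.47% higher and 3.97% lower genes over the whole table. The lists were drawn up with earlier results of these data known. With the replicate block within fraction, where 20% of all genes were higher and 14.8% lower, the counts were 36 and 1, 24 and 0, and 14 and 0. The 3 lists made up 32 of the 95 genes called higher with all libraries.

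In each list the median level was lower in both pools relative to other mRNAs, and by more in the subpolysomal pool. The median effects were -0.96 in subpolysomal and -0.39 in polysomal RNA for the large subunit, -1.02 and -0.40 for the small subunit, and -0.86 and -0.10 for the other TOP mRNAs, with input medians of -0.59, -0.63 and -0.32. RPL4, a large-subunit protein, had 6169.8, 8032, 6668 and 7264 CPM in subpolysomal RNA with control and 3675, 4059.6, 2864 and 3119.5 CPM with CNOT1 siRNA. Its polysomal values were 2449, 2839, 2274 and 2720.1 CPM and 2279, 2781, 2780.1 and 2518 CPM, which overlapped, and its shift was 1.11 (SE 0.19, FDR 0.00355) without both and 1.17 (SE 0.19, FDR 0.00983) with all libraries. RPL13A shifted by 1.12 (SE 0.21, FDR 0.0053), and RPSA, RPS3 and RPS4X of the small subunit by 1.02, 1.01 and 1.00. The 1 lower member, RPL39L, is a paralogue of RPL39 with low counts (mean 7.02 CPM) and shifted by -1.12 (SE 0.29, FDR 0.0232) without both and -1.07 (FDR 0.0696) with all libraries. Relative to all genes, the large-subunit mRNAs had a median gradient ratio of -1.04 to -0.89 with control siRNA in replicates 1, 2 and 4 and of -0.68 to -0.35 with CNOT1 siRNA, so that they remained on the subpolysomal side in every gradient. In replicate 3 the values were -1.99 and -0.13. PABPC1 and the ribosomal protein genes have many near-identical pseudogene copies, and since the handling of reads that match several copies was not given in the sources used here, their levels are uncertain. RPSA lost its call in 6 of the 14 fits that left out 1 library (FDR up to 0.088).

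To show the sequence that the TOP lists share, the first 20 bases of the annotated mRNA are printed for members with large shifts, with the leading run of pyrimidines after a first C in capitals (GENCODE transcripts on GRCh37). EIF4B starts at chr12:53400240-53400259 (+), EIF3L at chr22:38245426-38245445 (+), RPL7A at chr9:136215073-136215092 (+), RPL13A at chr19:49990865-49990884 (+), RPS3 at chr11:75110562-75110581 (+) and RPSA at chr3:39448211-39448230 (+).
EIF4B: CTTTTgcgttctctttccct
EIF3L: CTTTCCggcggtgctcgcaa
RPL7A: CTTTCTCTCTCCTCCCgccg
RPL13A: CTTTTCCaagcggctgccga
RPS3: CCTTTCCTTTCagcggagcg
RPSA: CTTTTCCgtgctacctgcag
For comparison, RPL4 (chr15:66797174-66797193, -) has an annotated start without the tract, and of the genes with a lower ratio KLHDC3 (chr6:42981987-42982006, +) lacks it and CCNI (chr4:77997123-77997142, -) has it.
RPL4: aagcacttccttttcctgtg
KLHDC3: gtttatctcgttggggacta
CCNI: CTCCCTCCCCagccttcccc

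A start with C and at least 5 pyrimidines in all, read on the strand of the transcript, occurred in 5.34% of the 13233 protein-coding genes with an annotated mRNA. This motif was chosen after values of the genes were seen. It occurred in 9.20% of the genes with a higher ratio and in 6.59% of those with a lower ratio without both libraries, and in 28.3% of the genes higher and 12.9% of those lower with all libraries. Within the ribosomal protein and TOP lists, 37 of 76 genes with the start and 12 of 25 without it in the annotation were called higher. Outside these lists, 630 genes had such a start, of which 45 were higher and 42 lower without both libraries (7.14% and 6.67%) and 2 and 8 with all. Their median shift was 0.08. Of the coding genes without the start 6.46% were higher and 4.75% lower without both libraries, with a median shift of 0.07. Among genes with a higher ratio outside these lists 5.34% had the start, the same share as over all genes. Annotated starts were used, and the starts in use in these cells were not measured.

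Of 38 initiation factors tested, 11 rose and 1 fell without both libraries (median shift 0.18), or 16 and 4 with the replicate block within fraction (all genes 20% and 14.8%), and 5 and 0 with all libraries. Of 13 eIF3 subunits in the list 7 rose, namely EIF3L, EIF3F, EIF3E, EIF3H, EIF3A, EIF3M and EIF3D, with shifts of 1.17, 1.01, 1.01, 0.90, 0.90, 0.64 and 0.56, of which the first 4 were called in both fits. The other 6 eIF3 subunits had shifts from -0.20 (EIF3I) to 0.34 (EIF3G). This subset was looked at after the values were seen. EIF4E3, a member of the cap-binding eIF4E family, was the one lower factor, at -1.12 (SE 0.20, FDR 0.00396) without both libraries, and was not called with all (-0.47, FDR 0.604). Its effect was -1.10 in polysomal and 0.02 in subpolysomal RNA, so that here the polysomal pool moved. The 3 eIF4A paralogues were not called by either tool without both libraries, with 1 higher at an unadjusted p under 0.05 by edgeR, and 1 was higher with the replicate block within fraction. EIF4A2 had a shift of 0.42 (SE 0.19, FDR 0.188). Of 20 cytosolic aminoacyl-tRNA synthetases 3 rose and 0 fell, or 8 and 3 with the replicate block within fraction (all genes 20% and 14.8%). QARS, which charges glutamine tRNA, shifted by 1.12 (SE 0.16, FDR 0.00156) without both and 1.16 (SE 0.17, FDR 0.00535) with all libraries. It had 489.5, 633, 498 and 592 CPM in subpolysomal RNA with control and 249, 293, 234 and 284 CPM with CNOT1 siRNA, and 291, 284, 282 and 276 and 253, 277, 316 and 267 CPM in polysomal RNA, and so followed the pattern of EIF4B. NARS and HARS, also called, shifted by 0.53 and 0.45, and each lost its call in 12 of the 14 fits that left out 1 library.

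**Figure D4:**
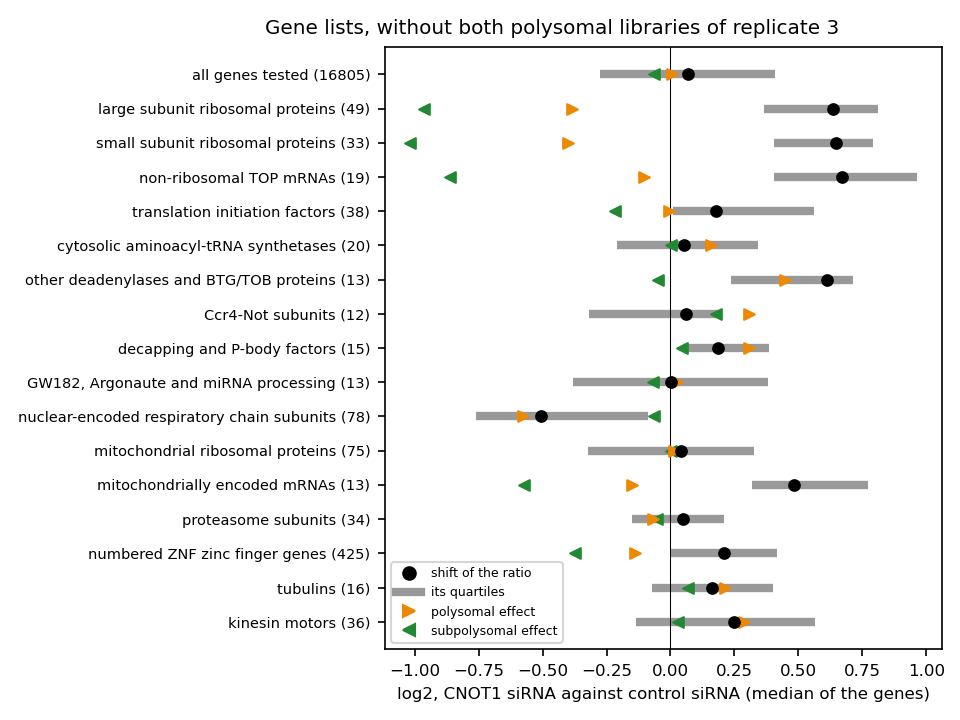
Median shift of the polysomal/subpolysomal ratio (black points) with its quartiles over genes (grey bars), and median CNOT1 siRNA effects in polysomal (orange) and subpolysomal RNA (green), on a log2 axis, for 16 gene lists and all genes tested, without both polysomal libraries of replicate 3; numbers of genes tested are in brackets. The ribosomal protein and TOP lists have medians of 0.64 to 0.67 with subpolysomal effects near -1, and the respiratory chain has a median of -0.51.

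The ratio fell for genes of other kinds. CCNI (chromosome 4, 77968308 to 77997462), which encodes cyclin I, had 395, 511, 369 and 373 CPM in subpolysomal RNA with control and 739.8, 1121, 705 and 864 CPM with CNOT1 siRNA. In polysomal RNA it had 325, 351, 199.9 and 359 CPM and 201, 212, 343 and 236 CPM, where CNOT1 siRNA was lower in replicates 1, 2 and 4. Its shift was -1.57 (SE 0.21, FDR 0.00148) without both and -1.24 (SE 0.27, FDR 0.0372) with all libraries. MKNK2 (chromosome 19, 2037464 to 2051243), a kinase of the cap-binding factor eIF4E, had 38.1, 36.4, 76.4 and 69.1 CPM in subpolysomal RNA with control and 161, 179, 240.1 and 253 CPM with CNOT1 siRNA, against 87.4, 66.3, 81.1 and 56.3 and 103, 93, 56.4 and 80.0 CPM in polysomal RNA. Its shift was -1.39 (SE 0.35, FDR 0.0201), and it was not called without polysomal CNOT1 siRNA replicates 2 or 4 (FDR up to 0.0543). JUND, an AP-1 transcription factor, had 16.2, 20.9, 34 and 30.9 CPM in subpolysomal RNA with control and 54.7, 68.2, 88.1 and 76.2 CPM with CNOT1 siRNA, while its polysomal values stayed between 19.8 and 23.8 CPM in all 8 libraries. Its shift was -1.32 (SE 0.29, FDR 0.0112) without both and -1.41 (SE 0.27, FDR 0.0227) with all libraries.

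All 62 lower genes called in both fits had the larger movement in the subpolysomal pool, a pattern that such a call favours. The rest of the 10 largest decreases, chosen among these genes like JUND, shared it by that choice. They were TMX4, a thioredoxin-like membrane protein of the endoplasmic reticulum (-1.21, SE 0.17, FDR 0.00156), SNX10, a sorting nexin (-1.20, SE 0.25, FDR 0.00824), WWP1, a HECT-type ubiquitin ligase (-1.20, SE 0.24, FDR 0.00764), and KLHDC3, a substrate receptor of a cullin ubiquitin ligase (-1.16, SE 0.15, FDR 0.00148). GNAZ, a G protein alpha subunit, shifted by -1.16 (SE 0.24, FDR 0.00852), EPB41L4B, a FERM-domain protein, by -1.15 (SE 0.26, FDR 0.0137), and the ephrin ligand EFNB3 by -1.15 (SE 0.24, FDR 0.00796). Their subpolysomal effects ran from 0.73 to 1.499 (SNX10) and their polysomal effects from -0.43 to 0.30. With all libraries, each of the 10 largest decreases lost its call in some of the 16 fits that left out 1 library. The number of such fits ran from 4 (JUND) to 14 (EPB41L4B). In KLHDC3 the gradient ratios of replicate 3 were -0.69 for control and -0.72 for CNOT1 siRNA, close together, whereas the other 6 gradients lay between 0.08 and 0.60 with control and between -1.05 and -1.02 with CNOT1 siRNA.

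Nuclear-encoded subunits of the respiratory chain shifted towards the subpolysomal fraction, and here the polysomal pool moved. Of 78 tested, 22 had a lower and 1 a higher ratio without both libraries (median shift -0.51), and 46 lower and 8 higher with the replicate block within fraction, against 14.8% and 20% of all genes. With all libraries edgeR and DESeq2 each called 0 (median -0.25; 4 higher and 5 lower at an unadjusted p under 0.05 by edgeR), so that this group rests on leaving out the replicate 3 polysomal libraries. The median effect was -0.58 in polysomal and -0.06 in subpolysomal RNA, and -0.46 in input. ATP5J, a subunit of ATP synthase (chromosome 21, 27088815 to 27107984), had 242, 268, 106 and 263 CPM in polysomal RNA with control and 120.2, 133, 223 and 149.8 CPM with CNOT1 siRNA. CNOT1 siRNA was lower in replicates 1, 2 and 4 and, by its labels, higher in replicate 3. Reads of ATP5J may include some of an antisense gene, which overlaps more than 20% of its exonic bases, as in TUBA1B, MRPS25, IER3, LSM1, SNHG16, XPC and TIMM13. Its subpolysomal values were 86.2, 116, 113 and 86 CPM and 131, 158, 133 and 123.3 CPM, and its shift was -1.23 (SE 0.18, FDR 0.00182) without both and -0.81 (SE 0.32, FDR 0.231) with all libraries. COX6C of cytochrome c oxidase and NDUFA1 of complex I shifted by -1.20 (SE 0.20, FDR 0.00299) and -1.18 (SE 0.25, FDR 0.0088), and with all libraries by -0.77 (FDR 0.283) and -0.71 (FDR 0.372). The other 19 lower members ran from NDUFA4 (-0.99) to ATP5G3 (-0.56), and the 1 higher member, NDUFA10, shifted by 0.67. Of the 13 mRNAs encoded in mitochondrial DNA, 0 passed the test without both libraries by edgeR or DESeq2 (median shift 0.48, 12 of 13 above 0, with 5 higher at an unadjusted p under 0.05 by edgeR), and 3 were higher with the replicate block within fraction. Of 75 mitochondrial ribosomal protein mRNAs 4 rose and 6 fell, or 23 and 20 with the replicate block within fraction, where 20% and 14.8% of all genes were called.

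Among proteins of deadenylation, calls without both libraries were higher outside the Ccr4-Not complex and lower in 3 of its subunits, among them the siRNA target CNOT1. The median shift of the 12 Ccr4-Not subunits was 0.06, with 6 of them above 0. Of 13 other deadenylases and BTG/TOB proteins, 6 rose and 0 fell without both libraries (median shift 0.61), against 5.47% and 3.97% of all genes. The replicate block within fraction gave 9 and 0, against 20% and 14.8% of all genes. With all libraries edgeR called 0 (median 0.34; 3 higher and 0 lower at an unadjusted p under 0.05) and DESeq2 1. BTG2 (chromosome 1, 203274619 to 203278730), an antiproliferative protein that binds the Ccr4-Not deadenylases, had 56.8, 57.3, 138 and 47.1 CPM in polysomal RNA with control and 117, 119, 61.6 and 114 CPM with CNOT1 siRNA. In subpolysomal RNA it had 55.1, 60.2, 46.4 and 47.5 CPM and 58, 60.6, 60.8 and 46.8 CPM, which overlapped, so that the polysomal pool moved, upwards in replicates 1, 2 and 4 and downwards in replicate 3 by its labels. Its shift was 1.16 (SE 0.18, FDR 0.0024) without both and 0.46 (FDR 0.616) with all libraries, and its effect in input was 1.13 on the log2 scale. CCRN4L, the circadian phosphatase nocturnin that is related to the Ccr4 deadenylases, shifted by 1.26 (SE 0.18, FDR 0.00156), or 0.60 (FDR 0.483) with all libraries, TOB2 by 0.77 (SE 0.19, FDR 0.0218), and TOE1, PDE12 and BTG3 by 0.71, 0.66 and 0.65. Of 12 Ccr4-Not subunits, CNOT1, the deadenylase CNOT7 (-0.68, SE 0.20, FDR 0.0413) and the deadenylase CNOT6 (-0.61, SE 0.18, FDR 0.0383) had a lower ratio without both libraries, and 0 rose. With all libraries edgeR and DESeq2 called 0 of the 12, with 0 at an unadjusted p under 0.05 by edgeR, and CNOT7 was at -0.31 (FDR 0.638), CNOT6 at -0.14 (FDR 0.861) and CNOT1 at 0.75. With the replicate block within fraction 1 of the 12 rose and 3 fell (all genes 20% and 14.8%). CNOT6 and CNOT7 each lost the call in 10 and TOB2 in 5 of the 14 fits that left out 1 library.

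Of 17 RNA-binding adapters of Ccr4-Not, 1 rose and 3 fell without both libraries, where edgeR called 5.47% of all genes higher and 3.97% lower. With all libraries edgeR and DESeq2 called 0 of them, while edgeR gave 1 higher and 2 lower members an unadjusted p under 0.05. ZFP36, which brings the complex to AU-rich elements, had 0.281, 0.195, 1.62 and 0.232 CPM in polysomal RNA with control and 1.15, 1.06, 0.198 and 0.892 CPM with CNOT1 siRNA. It was higher with CNOT1 siRNA in replicates 1, 2 and 4 and lower in replicate 3 by its labels, at a low level throughout, and its shift was 2.16 (SE 0.41, FDR 0.00555) without both and 0.50 (FDR 0.789) with all libraries; DESeq2 gave it no adjusted p. NANOS1, a translational repressor of the germ line, and SAMD4B, a Smaug-family protein, shifted by -1.30 (SE 0.29, FDR 0.0108) and -0.73 (SE 0.19, FDR 0.0229), and RC3H2 by -0.62. SAMD4B lost its call in 4 of the 14 fits that left out 1 library. In the decapping list 2 of 15 rose and 1 fell, namely PNRC1 (0.56), LSM14B (0.51) and LSM1 (-0.52). They lost their calls in 12, 13 and 8 of those 14 fits, PNRC1 also with RLE factors and DESeq2 and LSM14B with RLE factors, and with all libraries edgeR and DESeq2 called 0 of the list, and edgeR gave 1, a lower one, an unadjusted p under 0.05. Of 13 GW182, Argonaute and miRNA processing genes edgeR called only DGCR8, the RNA-binding partner of Drosha. DESeq2 called 1 higher and 3 lower (all genes 7.15% and 10.8%). The replicate block within fraction gave 4 and 5 (all genes 20% and 14.8%). It gave 2 and 4 for the adapters and 6 and 3 for the decapping list. DGCR8 shifted by 1.07 (SE 0.15, FDR 0.00156) without both and 1.06 (SE 0.16, FDR 0.00579) with all libraries. DGCR8 had 247, 206, 286 and 264 CPM in subpolysomal RNA with control and 132, 121, 133 and 132 CPM with CNOT1 siRNA, and between 85.9 and 106 CPM in all polysomal libraries. PAIP1, a partner of PABPC1, had a lower ratio, with a shift of -0.87 (SE 0.24, FDR 0.0314) without both and -0.88 (FDR 0.0667) with all libraries.

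In the remaining lists edgeR without the block called few genes in number, where 5.47% of all genes were higher and 3.97% lower. The shares higher were 25% of tubulins, 13.3% of p53 targets, 12.5% of immediate early genes and 11.1% of kinesins, each on 4 genes or fewer. They were 9.09% for cholesterol metabolism, 6.67% for ER chaperones and 5.71% for HOX genes. Of the lists described below, ER chaperones had the largest share lower, 6.67%. Of 425 numbered ZNF zinc finger genes 19 rose and 2 fell (4.47% and 0.47%; median shift 0.21), led by ZNF800 (1.01), ZNF367 (1.00) and ZNF174 (0.99). Of 16 tubulins 4 rose and 0 fell, with TUBA1B at 0.96 (SE 0.19, FDR 0.00702), and of 36 kinesins edgeR called 4 higher and 0 lower and DESeq2 4 and 2, with KIF5A at 0.98 (SE 0.23, FDR 0.0169). Among immediate early genes IER3 and KLF4 rose (1.35 and 0.69) and JUND fell. The p53 targets TNFRSF10B and XPC rose (0.70 and 0.63). In cholesterol metabolism HSD17B7 rose (0.65), and INSIG1, which holds back the synthesis pathway, fell (-0.64). Of 15 ER chaperones DNAJB9 rose (0.91) and HYOU1 fell (-0.59), and of 34 proteasome subunits PSMA7 and PSMB3 fell (-0.67 and -0.50). Of 35 HOX genes HOXD3 and HOXD10 rose (1.53 and 0.73). Of 16 mRNAs of the integrated stress response edgeR called 0 and DESeq2 1 without both libraries (2 higher and 1 lower at an unadjusted p under 0.05 by edgeR). Of 8 CCT chaperonin subunits and 16 snoRNA host genes both tools called 0 (0 and 1 at an unadjusted p under 0.05 by edgeR). With the replicate block within fraction, where 20% of all genes were higher and 14.8% lower, the higher and lower counts were 119 and 21 for the ZNF genes, 4 and 0 for tubulins, 16 and 5 for kinesins, 8 and 1 for immediate early genes and 7 and 3 for p53 targets. They were 5 and 6 for cholesterol metabolism, 1 and 4 for ER chaperones, 5 and 7 for the proteasome, 5 and 5 for HOX genes, 4 and 3 for the stress response, 0 and 2 for CCT subunits and 0 and 1 for snoRNA hosts. Of the genes named in these lists, TUBA1B and JUND were the only ones called with all libraries. When 1 of the 14 libraries was left out, HSD17B7 lost its call in 13 fits, HOXD10 in 12, INSIG1 in 7, PSMA7 and PSMB3 in 6 each, IER3 in 3, and DNAJB9 and KIF5A in 1 each.

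RAB12, STX2, TIMM13 and RPS21, which the study measured along gradients of puromycin-treated cells, differed here in how far they passed the spread. STX2, a syntaxin of vesicle fusion, had 49.2, 59.1, 23.2 and 57.9 CPM in polysomal RNA with control and 25.9, 30.0, 55.3 and 31.2 CPM with CNOT1 siRNA, and 58.7, 60.6, 49.8 and 40.2 and 61.8, 85.7, 51.1 and 55.7 CPM in subpolysomal RNA. Its shift was -1.05 (SE 0.24, FDR 0.0132) without both and -0.56 (SE 0.36, FDR 0.478) with all libraries. RAB12, a small GTPase of membrane traffic, had gradient ratios of 0.87, 0.74, 0.71 and 1.12 with control and 0.16, -0.42, 0.69 and 0.36 with CNOT1 siRNA in replicates 1 to 4. With replicate 3 counted by its labels these did not overlap. The shift missed the threshold, at -0.75 (SE 0.24, FDR 0.0648) without both and -0.57 (SE 0.26, FDR 0.301) with all libraries. Without both, RAB12 passed it with the replicate block within fraction (-0.75, FDR 1.48e-05), and also with RLE factors (FDR 0.0451) and DESeq2 (FDR 0.0145). TIMM13, a mitochondrial import chaperone, had ratios from -0.82 to 2.46 with control and from -1.02 to 1.16 with CNOT1 siRNA, and its shift of -0.68 (SE 0.61, FDR 0.545) passed the test, among the alternatives run without both, only with the replicate block within fraction (-0.72, FDR 0.000191) and without a filter on low counts (-0.81, FDR 0.00179). RPS21, of the small ribosomal subunit, shifted by 0.16 (SE 0.29, FDR 0.789), and its effects were -0.71 in subpolysomal and -0.55 in polysomal RNA.

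To relate the shift to helicase binding, genes were grouped by enrichment in RNA immunoprecipitates (IP) of eIF4A1, eIF4A2 or DDX6, DEAD-box proteins of initiation and of repression, over total RNA (n = 3 libraries each, edgeR). Over all genes 5.47% were higher and 3.97% lower without both libraries, and 0.576% and 0.376% with all. Of 587 mRNAs enriched only with eIF4A2, 43 had a higher and 5 a lower ratio without both libraries (7.33% and 0.85%), and 9 and 0 with all. Of 454 enriched only with DDX6, 14 were higher and 63 lower (3.08% and 13.9%), and 0 and 3 with all. The lower share was not particular to this group. Of 621 enriched with eIF4A1 and DDX6, 7 were higher and 84 lower (1.13% and 13.5%), and 0 and 5 with all. Of 2691 enriched with all 3, 60 were higher and 232 lower (2.23% and 8.62%), and 3 and 39 with all. Of 65 enriched with eIF4A2 and DDX6, 3 were higher and 2 lower. The 319 enriched only with eIF4A1 gave 6 and 8 (1.88% and 2.51%). The 10852 enriched in none gave 751 and 264 (6.92% and 2.43%), and 82 and 14 with all libraries. The median shifts were 0.26 for eIF4A2 only, -0.28 for DDX6 only, -0.06 for eIF4A1 only, 0.15 for none and -0.16 for the 2691 mRNAs enriched with all 3. They were -0.33 for eIF4A1 and DDX6, 0.18 for eIF4A2 and DDX6 and 0.17 for eIF4A1 and eIF4A2. With the replicate block within fraction the counts were 146 and 19 for eIF4A2 only, 39 and 188 for DDX6 only and 35 and 45 for eIF4A1 only, against 20% and 14.8% of all genes.

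The pools behind these medians differed. For eIF4A2-only mRNAs the median effect was -0.36 in subpolysomal and -0.11 in polysomal RNA, and for DDX6-only mRNAs 0.06 and -0.19. Relative to all genes the median gradient ratio of the eIF4A2-only group lay between -0.68 and -0.60 in the 4 control gradients. In the 4 CNOT1 siRNA gradients it lay between -0.50 and -0.22, without overlap and with replicate 3 counted by its labels. The DDX6-only group lay between 0.02 and 0.18 in control replicates 1, 2 and 4 and between -0.23 and -0.07 in the matching CNOT1 siRNA gradients, and at -0.20 and -0.06 in replicate 3. The groups rested on calls against the same total RNA, and few of their members also exceeded both other IPs directly. Only 18 of the eIF4A2-only genes also exceeded both other IPs directly, of which CLK1, PAXBP1, SUGP2 and TRMT11 were higher and 0 lower (median shift 0.42), and only 7 of the DDX6-only genes, of which ATXN2 was higher and 0 lower (median shift 0.19). Grouping by TNRC6A/B knockdown was not possible, since edgeR called 0 of 14064 genes there (n = 2 libraries per group; 173 higher and 116 lower at an unadjusted p under 0.05).

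The called genes also differed in the lengths of their mRNAs. Over 13233 protein-coding genes tested the median coding sequence was 1434 nt. It was 1569 nt for genes with a higher ratio and 786 nt for those with a lower ratio without both libraries, and 1278 and 1161 nt with all libraries. When the genes were split by coding length into 3 classes of about equal size, without both libraries 4.62% of the shortest class were higher and 9.01% lower, with a median shift of -0.11. In the longest class 7.35% were higher and 2.09% lower, with a median shift of 0.18. With all libraries the order of the counts differed, with 40 higher and 25 lower genes in the shortest and 16 and 11 in the longest class, of 4384 each, and median shifts of -0.07 and 0.07. The ribosomal protein and TOP mRNAs, of which 49 of 101 had a higher ratio without both, had a median of 519 nt. The median 5′UTR was 111 nt and 65.3% GC for higher genes, 152 nt and 72.5% GC for lower genes and 145 nt and 67.3% GC for all, and the median 3′UTR was 1188, 1693 and 1348 nt. The purine tetramers AAGA or AGAA or GAAA or GAGA or AGAG or GGAA or AAAA or GAAG, counted on the strand of the mRNA where overlapping tetramers are read once, had a median density in the 5′UTR of 1.71 per 100 nt in higher, 1.29 in lower and 1.68 in all genes. With all libraries the density was 1.11 in the higher and 1.04 in the lower genes. These are medians over genes, given as a description with no test.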

How the data were processed

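RNA from HEK293 cells was sequenced by the authors from poly(A)-selected, stranded libraries. The deposited values are raw counts of reads per gene, which the authors made with TopHat2 on hg19 and htseq-count; the strand option and the treatment of reads with several matches were not given in the sources used here. Each file held counts for 55765 gene symbols, and library totals set the precision given in the text.

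Samples were grouped by their labels. The shift was fitted as an interaction of siRNA and fraction on group means with edgeR 4.0.16 (R 4.3.3; TMM factors, filterByExpr, quasi-likelihood F-test, Benjamini-Hochberg FDR under 0.05), over 16 libraries and over 14. Standard errors were derived from the F statistic. CPM used TMM factors of the 16 libraries, and gradient ratios were log2 of polysomal over subpolysomal CPM with a pseudocount of 0.5. Input libraries (n = 4 per siRNA), IP libraries (n = 3 per group) and TNRC6A/B knockdown libraries (n = 2 per group) were fitted separately. mRNA features were read from GENCODE canonical transcripts on GRCh37 for 99.4% of the protein-coding genes tested. The script was tested on simulated data.

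Named genes were CNOT1, the 4 genes that the study measured along gradients of puromycin-treated cells, and the 10 largest increases and decreases among genes called in both fits with at least 10 CPM and no overlap of gradient ratios in replicates 1, 2 and 4. Values of some of these genes are not reported here. In each gene list the 3 called members with the largest shifts were named, and where more are named they were chosen after their values were seen. The members and lists were chosen with earlier results of these data known. Labels do not say that libraries came from separate cultures, so p-values measure the spread between these libraries.

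Deviations from the group means of same-numbered libraries correlated at 0.50 to 0.65 between the siRNAs in subpolysomal RNA and at 0.20 to 0.42 in polysomal RNA without replicate 3, each best with its own number, but at -0.32 to 0.16 (control siRNA) and -0.21 to -0.07 (CNOT1 siRNA) between the fractions. The numbers were therefore taken to pair the siRNAs within a fraction. Alternatives were the scaling, DESeq2 1.42.0, the filter on low counts, the input libraries, replicate blocks and leaving out libraries; the blocks within fraction and the subpolysomal pairs of libraries were added after seeing the data.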

Additional observations from a re-analysis of the deposited data

Results flagged for a closer look

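Most of the values that stood apart from their group came from replicate 3. Dixon's criterion marked 24 of 250 groups of 4 libraries or gradients, and 22 of the 24 marked values belonged to replicate 3. Chance marks about 1 in 20 independent groups, but these groups share libraries. Many are also genes named because they were called without the polysomal libraries of replicate 3, which favours marks in replicate 3. Neither count can therefore be set against chance. CNOT1 in polysomal RNA was marked at 28.5 CPM in the library labelled control siRNA and at 671 CPM in the library labelled CNOT1 siRNA.

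Gradient ratios of single genes were marked in control siRNA replicate 3 for BTG2 (1.56), CCRN4L (0.99), CDC25A (1.59), CNOT1 (-3.13), LSM1 (-0.35), NARS (1.45), NDUFA1 (-0.29), RPS3 (-2.31) and TNFRSF10B (0.30). In the same gradient the medians of gene lists relative to all genes were marked for the deadenylases and BTG/TOB proteins (0.69), large-subunit ribosomal proteins (-1.99), small-subunit ribosomal proteins (-2.13), respiratory chain subunits (-0.035), integrated stress response mRNAs (1.17) and snoRNA host genes (-4.08).

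With CNOT1 siRNA the marked values of replicate 3 were CNOT1 (3.16), KLHDC3 (-0.72), MRPL14 (0.18), the non-ribosomal TOP mRNAs (0.28) and the HOX genes (0.30). Replicate 4 was marked for HOXD3 (-1.18) and LSM1 (-0.35).

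The effect of CNOT1 siRNA differed between the fractions by the interaction test of edgeR for 95 higher and 62 lower genes with all libraries, and for 919 and 667 without both polysomal libraries of replicate 3.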

How the results depend on the processing

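Counts are given as genes with a higher and a lower ratio. With all libraries, where 95 and 62 were called, they were 547 and 402 with the input libraries in the fit, 46 and 62 with RLE factors, 271 and 307 with DESeq2, 95 and 351 without a filter, 201 and 125 at 10 CPM or more, 69 and 47 with the replicate block, 0 and 0 with the replicate block within siRNA (1177 and 752 at an unadjusted p under 0.05), 284 and 234 with the replicate block within fraction, 919 and 667 without both polysomal libraries of replicate 3 and 1057 and 760 without all 4 libraries of replicate 3. Leaving out 1 library gave 13 to 385 higher and 10 to 273 lower genes, highest without the polysomal control replicate 3, and the counts stayed within 1.5 times only without subpolysomal control replicates 2 and 3 and polysomal CNOT1 replicate 3.

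Without both polysomal libraries of replicate 3, where 919 and 667 were called, they were 1709 and 1285 with input, 556 and 934 with RLE factors, 875 and 1326 with DESeq2, 459 and 1384 without a filter, 1087 and 909 at 10 CPM or more, 1655 and 1219 with the replicate block, 290 and 225 with the replicate block within siRNA, 3364 and 2486 with the replicate block within fraction, 1525 and 1130 with subpolysomal replicates 1 and 2 only and 1180 and 993 with 3 and 4 only. Leaving out 1 library gave 382 to 1138 higher genes, lowest without polysomal control replicate 1, and 280 to 921 lower genes, lowest without polysomal CNOT1 replicate 1. In no alternative was a gene called in the direction opposite to its main call.

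Of 29 named genes called with all libraries 8 kept the call whichever library was left out, and of 76 called without both 46 did. Of these, 0 reversed. These fits held no replicate block. With the block within fraction and no further library left out, no call among the 76 was lost, and TMCO6 lost its call among the 29. The CNOT1 shift with all libraries turned to -0.22 with the replicate block, -0.66 within siRNA, -1.29 within fraction, -2.30 without both libraries, -2.31 without all 4 of replicate 3 and, over the fits without 1 library, ran from -1.92 (without polysomal CNOT1 replicate 3) to 1.11. RPS21, not called, ran from -0.053 (without subpolysomal control replicate 3) to 0.29 over such fits. The DDX6-only median turned to 0.19 over the 7 genes that also exceeded the other IPs. The cause of these changes was not tested.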

Other observations

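Of 16 snoRNA host genes edgeR called 0 (median shift -0.02), but the median effects were -0.80 in polysomal and -0.74 in subpolysomal RNA without both polysomal libraries of replicate 3, so that both pools were lower relative to other mRNAs. For the 16 immediate early genes the medians were 0.93 in polysomal and 0.24 in subpolysomal RNA, and for the 35 HOX genes -0.44 and -0.52.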
